A study of Caenorhabditis elegans with 2 samples.

Results

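Divergent promoters are stretches of genome from which a pair of genes is transcribed in opposite directions, so that a protein bound there lies ahead of both. The regions described here are the weaker peaks of REC-8 binding at such promoters on the autosomes of Caenorhabditis elegans, 347 of the 10019 peaks that the authors called on both replicates pooled. They were chosen by the peak caller's signal, which had to lie below 92.7, and by place. The summit, the highest point of the peak, had to lie within 1000 bp upstream of protein-coding transcript starts on both strands. It also had to lie over 250 bp from every tRNA, snoRNA, snRNA and rRNA gene, which set aside 12 further peaks. The bound on signal lies just under 92.8, the lowest signal among the 739 peaks that the authors kept by irreproducible discovery rate, which scores how well the order of peaks repeats between lists.

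The data are chromatin immunoprecipitation followed by sequencing from whole hermaphrodites of strain YL581, a transgenic line stably expressing REC-8 with GFP-FLAG at its C terminus. Worms were synchronized as starved L1 larvae after bleaching and collected 50 hours later as young adults. Both samples are biological replicates of this one group, so there is no second condition to set against it. The labels describe an immunoprecipitation with antibody to GFP while their antibody field names rec-8, they name a control that is not analysed here, and the sources used here do not give the promoter or copy number of the transgene.

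Cohesin is a ring of protein that holds sister chromatids together and shapes chromatin into loops. REC-8 is a kleisin, the subunit that closes the ring, and in worms it belongs to the germ line, where it takes part in meiosis. In whole adults the germ line is mixed with somatic tissue, and a peak does not say in which cells the protein was bound. In the compact genome of this worm many neighbouring genes stand head to head, with a short gap between their starts. Many worm genes are also trans-spliced, so that an annotated start can lie downstream of the place where transcription begins.

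The sequence under 4 of the 12 strongest of these peaks is shown because these 4 ranked best in both replicates among those of the 12 on chromosomes II to V. Each run is the plus strand of WBcel235 (ce11), from the RefSeq genome, centred on the summit and ending at a facing start where one came closer than the window's end. Capitals mark matches, on either strand, to the short motifs that were searched and are spelled out further on. The cng-1/F14H8.8 run is chrV:15029029-15029229, with 1 match to GAGAGA, a GA repeat. The C34E10.10/atp-2 run is chrIII:5228136-5228336, with 7 matches, to a GC box, a TATA box, a splice acceptor and runs of T. The B0464.6/B0464.9 run is chrIII:9465570-9465766, with 2 overlapping matches to TTTTTT. The cyn-4/copz-1 run is chrII:10872612-10872808, with 1 match to TTTCAG.
cng-1/F14H8.8: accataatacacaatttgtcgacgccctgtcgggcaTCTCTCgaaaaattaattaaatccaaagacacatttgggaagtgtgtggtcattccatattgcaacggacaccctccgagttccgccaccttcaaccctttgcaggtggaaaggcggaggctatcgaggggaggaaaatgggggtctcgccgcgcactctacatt
C34E10.10/atp-2: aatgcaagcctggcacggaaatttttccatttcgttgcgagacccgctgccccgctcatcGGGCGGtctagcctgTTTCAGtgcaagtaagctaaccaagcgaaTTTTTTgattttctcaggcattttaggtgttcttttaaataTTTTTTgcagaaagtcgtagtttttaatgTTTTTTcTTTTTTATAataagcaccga
B0464.6/B0464.9: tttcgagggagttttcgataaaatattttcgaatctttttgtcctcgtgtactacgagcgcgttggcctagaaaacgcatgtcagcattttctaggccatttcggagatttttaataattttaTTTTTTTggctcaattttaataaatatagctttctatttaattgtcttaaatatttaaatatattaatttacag
cyn-4/copz-1: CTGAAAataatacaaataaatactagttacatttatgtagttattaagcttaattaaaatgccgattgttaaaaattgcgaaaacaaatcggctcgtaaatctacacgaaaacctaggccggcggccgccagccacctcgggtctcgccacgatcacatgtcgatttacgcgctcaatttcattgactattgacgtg

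A further pair of runs was added after the values were seen, because their genes bear on the experiment itself or on stress. The hsp-16.2/hsp-16.41 run, chrV:1804958-1805177, is the whole gap between the starts of a pair of small heat shock protein genes. It holds 1 match each to GAANNTTC, GAGACGCAG and TATAAA. GAANNTTC is the core of the heat shock element. The rec-8/mex-5 run, chrIV:13353428-13353628, is centred on a summit between rec-8, the gene of the tagged protein, and mex-5, which encodes a zinc finger protein of embryonic polarity. It holds 3 matches to TATAAA and TTTTTT. Both runs are the plus strand of WBcel235 from the RefSeq genome, with capitals as above.
hsp-16.2/hsp-16.41: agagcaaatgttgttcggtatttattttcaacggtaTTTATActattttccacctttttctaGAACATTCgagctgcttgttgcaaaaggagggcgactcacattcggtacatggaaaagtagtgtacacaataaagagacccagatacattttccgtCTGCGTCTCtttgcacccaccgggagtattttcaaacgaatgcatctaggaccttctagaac
rec-8/mex-5: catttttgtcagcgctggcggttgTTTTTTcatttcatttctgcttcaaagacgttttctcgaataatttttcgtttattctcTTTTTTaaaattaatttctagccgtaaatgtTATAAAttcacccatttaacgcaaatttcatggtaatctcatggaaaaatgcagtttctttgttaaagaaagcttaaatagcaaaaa

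Of the 7889 weaker autosomal peaks that lay clear of short RNA genes, the 347 at divergent promoters made up 4.40% (exact 95% binomial interval 3.96 to 4.87). A further 2013 lay ahead of starts on one strand only, called one-sided here, and 5529 lay ahead of no start. The sequence that could meet the rule was 1.61 Mb of the 82.1 Mb of autosome clear of short RNA genes, or 1.96%. Summits thus lay at 216.1 per Mb of divergent sequence, against 115.6 per Mb of one-sided sequence and 87.7 per Mb of sequence ahead of no start. The ratio of divergent sequence to all the rest was 2.31. Distance to the nearest start was not matched between these kinds of sequence. Among the stronger peaks, 78 of 329 were at divergent promoters (23.7%, interval 19.2 to 28.7), which is 48.6 per Mb, against 7.29 per Mb of one-sided sequence and 1.97 per Mb ahead of no start. No test was made of these differences, since peaks are not replicates and the study has 1 group. All intervals take each peak as independent, which close neighbours are not, and reflect only counting error.

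By construction the signals of the 347 ended below the bound. They ran from 39.9 to 92.2 with a median of 53.4 (95% interval of the median 50.2 to 55.5), against medians of 48.6 at one-sided promoters and 47.1 ahead of no start. Their places in the pooled list ran from 750 to 10019, with a median of 3521. Cut into 3 equal signal classes at 44.4 and 52, the 7889 weaker peaks were divergent in 3.57%, 2.74% and 6.88% of the lowest, middle and highest class. Of the members, 52.2% thus fell in the highest class, 20.7% in the middle one and 27.1% in the lowest. The deposited list is a relaxed one that holds background by design. The authors' q value was below 0.05 for 36 members (10.4%), against 90 one-sided peaks (4.47%) and 134 peaks ahead of no start (2.42%).

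The 4 strongest members, just inside the bound, were the peaks of B0464.6/B0464.9 at 92.23, ubh-4/algn-6 at 91.94, fbxc-44/C16A11.2 at 91.17 and C34E10.10/atp-2 at 90.75. The 4 divergent peaks just outside it were those of Y116A8C.9/arf-6 at 93.13, rict-1/gfm-1 at 93.56, Y77E11A.7/jtr-1 at 94.27 and let-630/hcp-6 at 95.69. The step across the bound is therefore small beside the range of signals on either side of it.

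Gene pairs are described next. The 347 peaks fell in the gaps of 331 distinct facing pairs, 315 with 1 member and 16 with 2. That is 11.3% of the 2924 autosomal pairs in which a summit could meet the rule. The same pairs held 662 genes, 12.4% of the 5349 genes that belong to such a pair. In 15 of the 16 pairs with 2 members the peaks overlapped each other, with summits 199 to 578 bp apart (median 219.5), and in 9 the members met the same peak of a replicate. Whether such members are parts of a single bound region was not tested. Stronger peaks lay in 77 facing pairs, and 4 pairs held both kinds, 1.21% of the pairs with weaker peaks and 5.19% of those with stronger ones.

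The strongest members are given in turn. All 12 of the strongest were overlapped in both replicates. Signal in each replicate is given on that list's own scale, which cannot be set against another list's, and places count from the strongest of 17532 peaks in replicate 1 and 14069 in replicate 2.

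B0464.6/B0464.9 (chrIII:9465455-9465884) had a pooled signal of 92.23, with 49.50 at place 793 in replicate 1 and 40.92 at place 1160 in replicate 2. Its starts lay 290 bp apart. B0464.9 is annotated as a phosphatase methylesterase, an enzyme that removes a methyl group from protein phosphatase 2A, and the summit lay in an intron of B0464.6. At ubh-4/algn-6 (chrII:8039378-8039807) the pooled signal was 91.94, with 54.27 at place 635 in replicate 1 and 30.12 at place 3433 in replicate 2. The spacing was 361 bp and the summit lay in a UTR exon of ubh-4, a ubiquitin hydrolase gene, while algn-6 belongs to the pathway of asparagine-linked glycosylation. Place differed widely between the replicates here, though both held a peak.

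The fbxc-44/C16A11.2 peak (chrII:4237908-4238337) had a pooled signal of 91.17, with 61.07 at place 466 in replicate 1 and 35.17 at place 1929 in replicate 2. fbxc-44 encodes an F-box protein, of the kind that brings substrates to a ubiquitin ligase. C34E10.10/atp-2 (chrIII:5228021-5228450), with starts 533 bp apart, had a pooled signal of 90.75, with 50.57 at place 759 and 43.01 at place 1006. atp-2 encodes the beta subunit of mitochondrial ATP synthase. For T10B5.4/cct-7 (chrV:1871824-1872253) the pooled signal was 90.58, with 40.71 at place 1392 in replicate 1 and 44.25 at place 926 in replicate 2. cct-7 encodes a subunit of the chaperonin that folds actin and tubulin, and the summit lay near the middle of its gap, 232 bp from T10B5.4 and 207 bp from cct-7.

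The Y41D4A.6/Y41D4A.4 peak (chrIV:1745522-1745951) had a pooled signal of 90.06, with 62.78 at place 427 in replicate 1 and 33.20 at place 2402 in replicate 2. Y41D4A.6 is annotated as a subunit of the mitochondrial amidotransferase that completes glutamine tRNA. At aka-1/ubc-6 (chrII:7478623-7479052) the pooled signal was 88.95, with 50.26 at place 768 and 35.05 at place 1959. ubc-6 encodes a ubiquitin-conjugating enzyme. Both peaks stood higher in the list of replicate 1 than in that of replicate 2.

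K09H9.7/K09H9.1 went the other way, with a pooled signal of 88.29, 32.92 at place 3093 in replicate 1 and 55.02 at place 543 in replicate 2. R107.5/cls-2 (chrIII:9054359-9054788) did likewise, with 87.21 pooled, 34.88 at place 2429 in replicate 1 and 53.25 at place 576 in replicate 2. cls-2 encodes a CLASP protein, which stabilizes spindle microtubules. These were the 2 widest gaps among the 12, at 1282 and 1258 bp.

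gna-1/B0024.13 (chrV:10320102-10320531) had 87.50 pooled, 56.95 at place 552 in replicate 1 and 33.04 at place 2447 in replicate 2. gna-1 encodes an acetyltransferase of hexosamine synthesis. The cng-1/F14H8.8 peak (chrV:15028914-15029343) had 87.36 pooled, 47.81 at place 861 and 45.40 at place 867, and its summit lay in an intron of cng-1, a cyclic nucleotide-gated channel gene. cyn-4/copz-1 (chrII:10872493-10872922) had 87.31 pooled, 42.31 at place 1234 and 44.23 at place 927. cyn-4 encodes a cyclophilin and copz-1 the zeta subunit of the COPI vesicle coat. Places in both replicates were nearly level for cng-1/F14H8.8 and close for cyn-4/copz-1.

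The best joint place was met by a peak outside the 12. epc-1/Y111B2A.12 (chrIII:12608718-12609147) had 81.93 pooled, 82.76 at place 186 in replicate 1 and 51.26 at place 623 in replicate 2. epc-1 encodes an enhancer of Polycomb protein, part of a histone acetyltransferase complex. It was the only member whose replicate peaks were among the 739 strongest of each list (0.288%, against 0.252% of the other weaker peaks), at a pooled place of 979. Those replicate peaks were, however, also the ones met by a stronger pooled peak (chrIII:12608512-12608941), with signal 134.76 at place 311 and its summit 206 bp away. The high replicate places therefore do not belong to this member alone. The next best by joint place, beside 4 of the 12 above, were Y53F4B.9/Y53F4B.11 at 84.97 pooled and T05A12.3/T05A12.4 at 84.63 pooled. T05A12.3/T05A12.4 held a second member at 50.81 that met the same replicate peaks. T05A12.3 is annotated as a homolog of the histone chaperone SPT2.

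The 3 weakest members were the peaks of sosi-1/eri-6 at 40.06, ska-1/Y106G6H.16 at 39.99 and cdk-7/Y39G10AR.11 at 39.94, the last of the whole pooled list. None had a peak in replicate 1. In replicate 2 their signals were 23.15, 21.10 and 25.77, at places 9002, 12082 and 6169. eri-6 encodes a helicase of the RNA interference pathway and cdk-7 a kinase of transcription and the cell cycle. The plot of replicate places sets all members side by side.

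**Figure D1:**
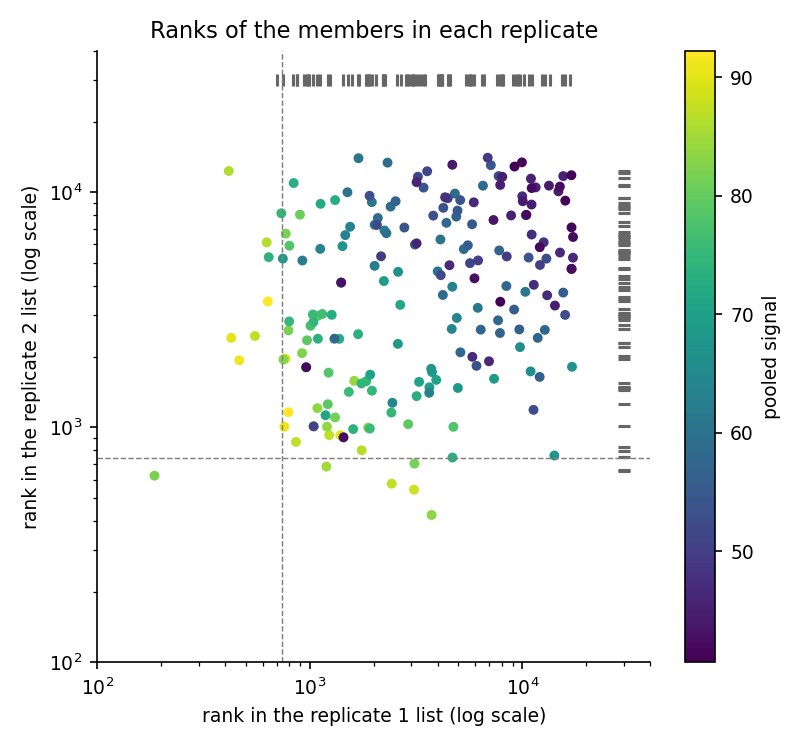
Place of each member in the list of replicate 1 (x axis, log scale) and replicate 2 (y axis, log scale), coloured by pooled signal, for the 199 members overlapped in both; grey ticks along the top and right mark the 74 members found in replicate 1 alone and the 65 in replicate 2 alone. Dashed lines mark place 739, and only 1 member, epc-1/Y111B2A.12, lies below it on both axes, through replicate peaks that a stronger pooled peak also met. That is 0.288% of members, against 0.252% of the other weaker peaks.

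Replicate support was judged by overlap of at least 50% of the shorter peak. Replicate 1 held a peak for 273 of the 347 members (78.7%) and replicate 2 for 264 (76.1%). Both did so for 199 (57.3%, interval 52.0 to 62.6), against 44.5% of the 7542 other weaker autosomal peaks, which were 936 of 2013 one-sided peaks (46.5%) and 2419 of 5529 peaks ahead of no start (43.8%). Neither replicate held a peak for 9 members (2.59%), against 2.43% of one-sided peaks and 2.66% of peaks ahead of no start.

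Signal moved with that share. The pooled peaks were called on both replicates, so their signal and their replicate support are not independent. In the highest signal class 144 of 181 members were in both replicates (79.6%, interval 72.9 to 85.2), against 77.6% of one-sided peaks and 77.6% of peaks ahead of no start. In the middle class it was 35 of 72 (48.6%, interval 36.7 to 60.7), against 39.1% and 39.6%. In the lowest class it was 20 of 94 (21.3%, interval 13.5 to 30.9), against 16.8% and 17.8%. Within each signal class the interval of the members held the values of both other groups, and the differences were not tested. The 50 strongest members were all in both replicates, as were 88 of the strongest 100 and 155 of the strongest 200.

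**Figure D2:**
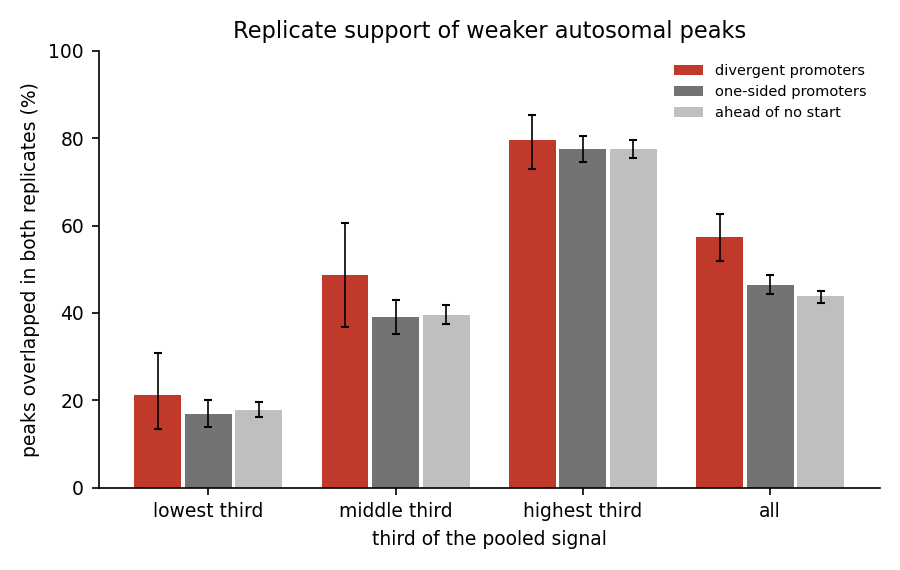
Share of weaker autosomal peaks overlapped in both replicates (y axis, percent) at divergent promoters, at one-sided promoters and ahead of no start, by class of pooled signal and for all peaks; error bars are exact 95% binomial intervals. The highest class reads 79.6%, 77.6% and 77.6%, and all peaks 57.3%, 46.5% and 43.8%.

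Among the members, which replicate held a peak also moved with signal. In the highest class 30 members were found in replicate 1 alone and 7 in replicate 2 alone. For one-sided peaks of that class it was 99 and 65, and ahead of no start 230 and 152. In the lowest class it was 28 and 38 members, against 265 and 202 one-sided peaks and 887 and 567 ahead of no start. In both other groups replicate 1 alone had the larger count in each of these classes. The replicate signals of the 199 members in both had a Spearman rho of 0.31, against 0.19 over 3355 other weaker peaks, both across peaks that share the same libraries. Among the 739 strongest peaks of replicate 1 were 10 members (2.88%), against 1.80% of the other weaker peaks. In replicate 2 there were 8 (2.31%), against 1.67%. The median place of a member, where it was found, was 3315 in replicate 1 and 4130 in replicate 2.

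Spacing is the distance between the facing starts on either side of a summit. Over the 347 members it ran from 98 to 1969 bp, with a median of 664 (95% interval 607 to 729) and quartiles of 433 and 1024. The 2924 facing pairs had a median of 768.5 and quartiles of 396 and 1297.2, with a pair of several starts taken at its narrowest gap. The spacing of a member is instead that of the gap around its summit, so these medians are not the same measure. A base drawn from the gaps of the facing pairs belonged to a gap of median 884. The 78 stronger divergent peaks had a median of 457.5 (interval 386 to 588). The rule itself caps the spacing at the sum of both windows, so its upper end is set by construction.

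Gaps of 250 to 500 bp held the most summits for their length. They had 93 members in 0.215 Mb, or 431.9 per Mb, and 14.7% of the 611 pairs of that spacing held one. Gaps under 250 bp had 21 members at 314.5 per Mb, but only 5.33% of these 394 pairs held a summit. From 500 to 750 bp there were 90 members at 268.1 per Mb and 14.1% of pairs.

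In wider gaps the density was lower. It was 140.0 per Mb from 750 to 1000 bp, 144.6 from 1000 to 1500 bp and 157.8 from 1500 to 2000 bp, closer to the 115.6 of one-sided sequence. Of the stronger peaks 12 lay in gaps under 250 bp, 30 in gaps of 250 to 500 bp, 7 in gaps of 1000 to 1500 bp and 1 in a wider gap.

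**Figure D3:**
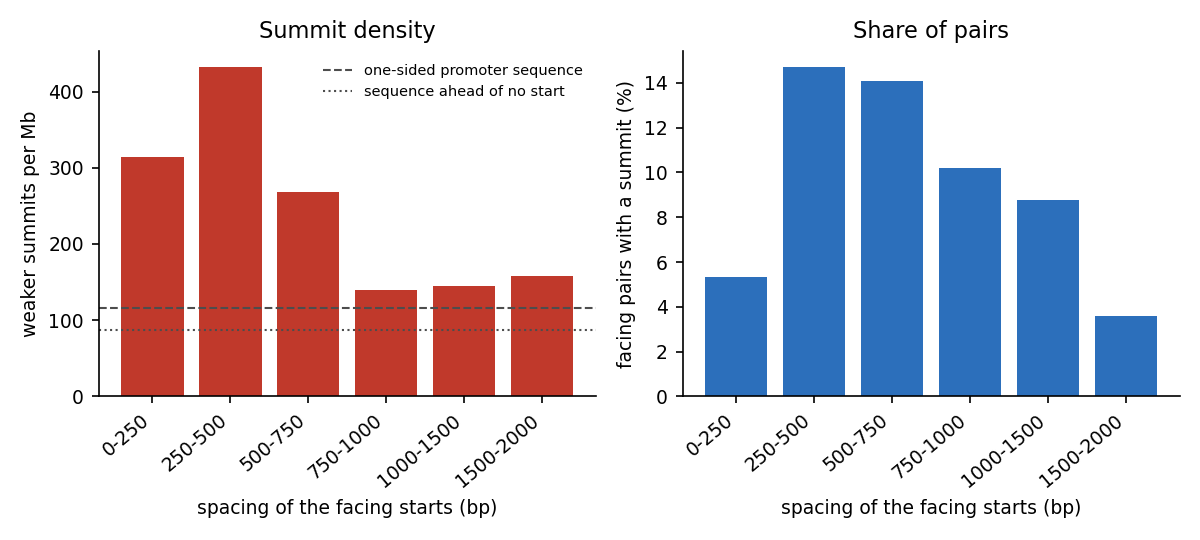
Left, weaker summits per Mb of sequence that could meet the rule (y axis) by spacing of the facing starts in bp (x axis), with the density of one-sided promoters (115.6) dashed and of sequence ahead of no start (87.7) dotted; right, percent of facing pairs with a member. Density is highest at 431.9 per Mb in gaps of 250 to 500 bp and at most 157.8 per Mb in every class from 750 bp up.

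Wider gaps held members of lower signal and a lower share in both replicates. In gaps up to 500 bp 70 of 114 members were in both replicates (61.4%, interval 51.8 to 70.4) at a median pooled signal of 56.8. From 500 to 1000 bp it was 80 of 140 (57.1%, interval 48.5 to 65.5) at 52.3, and above 1000 bp 49 of 93 (52.7%, interval 42.1 to 63.1) at 47.6. The 3 intervals overlap, and the trend was not tested. Across members, signal and spacing had a Spearman rho of -0.15, and signal and distance to the nearer start one of -0.06.

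Within the gap, summits lay 186 bp from the nearer start at the median (interval 170 to 207), where bases that could meet the rule lie at 233 bp. The nearer start was within 250 bp for 223 members (64.3%), against 52.9% of such bases, and within 100 bp for 93 (26.8%), against 24.6%. The median distance to the midpoint of the starts was 108.5 bp (interval 96.5 to 121), against 144 for such bases and 67 for the stronger divergent peaks. The central 50% of the gap held 232 summits (66.9%), against 61.9% of bases. This share of bases is above 50% because the 1000 bp windows trim the ends of wide gaps. The nearer start was the plus-strand one for 192 members and the minus-strand one for 155.

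**Figure D4:**
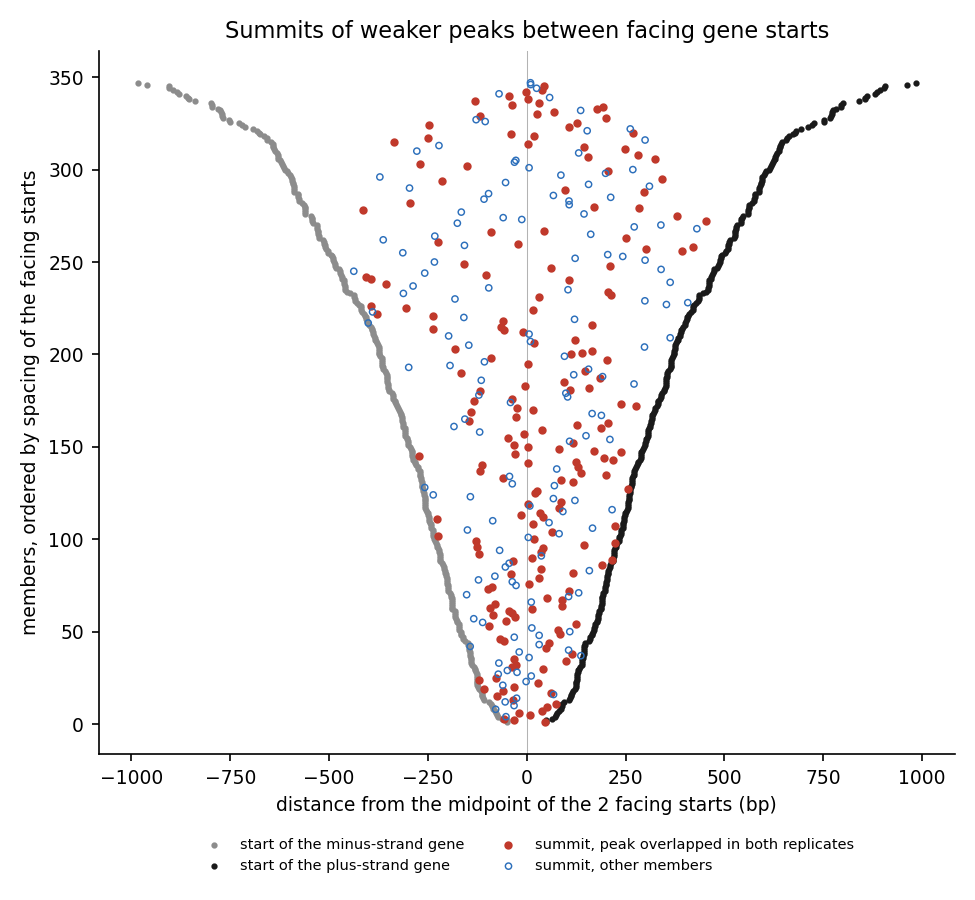
Each row is a member, ordered by spacing from the narrowest gap at the bottom; the x axis is distance in bp from the midpoint of the facing starts, grey and black points are the minus-strand and plus-strand starts, red points are summits overlapped in both replicates and open blue points the other summits. Summits lay at a median of 108.5 bp from the midpoint, and in gaps wider than 1000 bp the rule leaves out the ends.

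Every member peak was 430 bp wide, so many of them reached a start. The peak covered both starts of its pair in 45 cases (13.0%), 1 start in 153 and none in 149. For such peaks the gap and the genes beside it cannot be told apart at the resolution of the list. The narrowest gaps belonged to C55B7.11/glh-2 at 98 bp, with a signal of 64.56, polq-1/him-10 at 100 bp, with 74.55, and rab-18/kbp-4 at 126 bp, with 81.98. glh-2 encodes a Vasa-like helicase of germ granules, him-10 a kinetochore protein and rab-18 a small GTPase of membrane traffic. All 3 peaks were found in both replicates.

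At the wide end stood kgb-1/T07A9.12 at 1969 bp, with a signal of 43.14, cdk-7/Y39G10AR.11 at 1922 bp, with 39.94, and F59B1.10/str-114 at 1811 bp, with 49.84. kgb-1 encodes a stress-activated MAP kinase and str-114 a chemoreceptor. Of these 3, F59B1.10/str-114 alone was found in both replicates.

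A facing pair by this rule need not be free of other genes. Summits lay outside every protein-coding gene for 278 members (80.1%), in an intron for 37 (10.7%), in a UTR exon for 20 (5.76%) and in a coding exon for 12 (3.46%). For 44 members the gene around the summit was one of the pair, read from a further upstream start. For 25 (7.20%) the genes around the summit included one outside the pair, which need not lie wholly between the facing starts. wapl-1/chat-1, for example, had summits at 83.10 and 51.93 in a coding and a UTR exon of htz-1, the gene of histone variant H2A.Z. Likewise both members of cdd-2/oef-1, at 75.65 and 73.61, lay in an intron of pam-1, and both of Y71H2AM.11/cosa-1, at 45.30 and 42.31, in an intron of cox-6B. In these pairs the part of the gap at each summit is itself part of another gene. A non-coding RNA gene overlapped the summit of 15 members.

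The 5 autosomes contributed 53 to 80 members each. By facing pairs, 14.8% on chromosome III and 14.2% on I held a member, then 11.5% on II, 9% on V and 8.50% on IV. The outer 30% at each end of a chromosome held 165 members (47.6%), against 60.2% of the other weaker peaks and 51.4% of the facing pairs. Of the members, 52 (15.0%) overlapped another pooled peak, against 11.9% of the other weaker peaks, and 6 (1.73%) had a stronger peak within 1000 bp, against 1.60%. Of those 6, the epc-1/Y111B2A.12 peak met the same replicate peaks as its stronger neighbour and the other 5 did not.

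The genes at these promoters were counted by 21 lists, against the 12.4% of all genes of facing pairs. A list takes genes by their name, mostly by its prefix, as rpl and rps for ribosomal proteins, so it misses genes of the same function under other names. Of the 634 list genes in facing pairs, 98 stood beside a member summit. The lists differ in the spacing of their pairs, and no allowance was made for that. Several lists were above the background. Ribosomal protein genes had 18 of 49 (36.7%, interval 23.4 to 51.7), splicing genes 8 of 21 (38.1%, interval 18.1 to 61.6), translation factors 6 of 17 (35.3%, interval 14.2 to 61.7) and chaperones 10 of 30 (33.3%, interval 17.3 to 52.8).

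Among the ribosomal protein genes, rps-1 had the strongest peak (chrIII:4475442-4475871), shared with ifet-1, a repressor of translation in the germ line. Its pooled signal was 83.88, with 42.68 at place 1205 in replicate 1 and 42.95 at place 1007 in replicate 2. rpl-39 and rps-30 face each other across 499 bp, so 1 peak (chrV:7776148-7776577) counts for both, with 80.34 pooled, 47.19 at place 899 and 23.96 at place 8035. Its place in replicate 2 was thus far lower than in replicate 1.

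For the translation factors the strongest signals were 86.41 at eif-3.E, a subunit of initiation factor eIF3, 76.33 at eef-1G, the gamma subunit of elongation factor 1, and 70.81 at eif-4A3, of the exon junction complex. eef-1G faces ctf-4 across 180 bp and eif-4A3 faces vps-20, an ESCRT-III gene, across 459 bp. All 3 were found in both replicates. Splicing genes were led by rsp-3, an SR protein gene with summits at 66.91 and 42.89 in its gap with spin-4, then snr-2, of the Sm ring, at 62.64 and prp-40, of the U1 particle, at 52.65.

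Of the 10 chaperone genes with members, 5 were of the cytosolic chaperonin. Besides cct-7 these were cct-1 at 66.43, found in replicate 1 alone, cct-6 at 48.03, found in replicate 2 alone, cct-5 and cct-2. dnj-13, a DnaJ co-chaperone gene, had 73.63, with 38.62 at place 1688 in replicate 1 and 32.84 at place 2491 in replicate 2, but its summit lay in an intron of dhgd-1. hsp-6, the mitochondrial Hsp70 gene, had 41.73 and was found in both replicates. The hsp-16.2/hsp-16.41 peak (chrV:1804827-1805256) had a pooled signal of 43.08, no peak in replicate 1, and 31.30 at place 2970 in replicate 2. Its summit stood 85 bp from hsp-16.2 and 136 bp from hsp-16.41, genes that are silent in unstressed worms and strongly induced by heat.

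The lists for the nuclear pore, RNA polymerase II and DNA replication had shares of 25% to 29.4%. Other lists of nuclear function ranged from 0 of 41 for histones to 4 of 9 for cohesin (44.4%). Nuclear pore genes had 5 of 17 (29.4%, interval 10.3 to 56.0), with npp-12 at 67.91, npp-3 at 67.74, facing the topoisomerase gene top-2, and npp-6 at 66.04. RNA polymerase II, TFIID and mediator genes had 5 of 18 (27.8%, interval 9.69 to 53.5), with mdt-22 at 54.32, taf-4 at 51.17 and mdt-18 at 49.85. DNA replication genes had 5 of 20 (25%, interval 8.66 to 49.1), with cdc-6, the licensing factor, at 68.57, mcm-10 at 64.11 and orc-1 at 62.26. All 3 of these replication peaks were found in both replicates. The intervals of these 3 lists hold the background of 12.4%.

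Kinetochore and mitosis genes had 4 of 16 (25%, interval 7.27 to 52.4, which holds the background), with knl-3 at 74.65, the centrosome gene spd-5 at 66.04, facing npp-6 and so the same peak, and the centriole kinase gene zyg-1 at 47.87. Condensin and dosage compensation genes had 1 of 4, smc-4 at 51.95. Germ line genes had 3 of 13 (23.1%, interval 5.04 to 53.8), with glh-2 at 64.56, mex-5 at 57.05 and mex-1 at 46.77. The meiotic axis and synaptonemal complex had 1 of 8, syp-3, a protein of the central region, at 46.86.

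Cohesin genes had 4 of 9 (44.4%, interval 13.7 to 78.8), and 2 rather than 4 with a 500 bp window. wapl-1 counts through summits at 83.10 and 51.93 that lay in exons of htz-1, 758 and 989 bp from its own start. wapl-1 encodes the factor that releases cohesin from chromatin, coh-3 another meiotic kleisin and evl-14 a Pds5 protein that binds the ring. coh-3, facing the kinesin gene bmk-1 across 438 bp, had 73.02 pooled (chrV:14457204-14457633), with 48.27 at place 840 in replicate 1 and 21.80 at place 10948 in replicate 2, and its summit lay 3 bp from the start of coh-3. evl-14, facing dcn-1, had 41.02 pooled, with 20.58 at place 15923 and 23.00 at place 9212. Places in the replicates were far apart for coh-3, and both were low for evl-14.

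rec-8 itself faces mex-5 across 530 bp, and the gap held 2 members. One (chrIV:13352985-13353414) had a pooled signal of 57.05 with its summit 7 bp from the start of rec-8. The other (chrIV:13353313-13353742) had 50.25 with its summit 335 bp from rec-8 and 195 bp from mex-5. Neither had a peak in replicate 1, and both met the same peak of replicate 2, at 38.07 and place 1465. The pooled list held further peaks across the locus, the strongest at 80.80 near the far end of rec-8 (chrIV:13349360-13349789). The tagged transgene carries rec-8 sequence, and whether it adds signal at this locus was not tested.

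Vesicle traffic genes had 8 of 37 (21.6%, interval 9.83 to 38.2). They were led by rab-18 at 81.98, rab-5, the GTPase of early endosomes, at 72.73 and vps-20 at 70.81. Ubiquitin conjugation genes had 6 of 9 (66.7%, interval 29.9 to 92.5), the highest share of any list and one of the smallest lists. Besides ubc-6 they included uba-5 at 74.85, with 34.90 at place 2420 in replicate 1 and 40.98 at place 1156 in replicate 2, and ubc-19 at 54.96. Both were found in both replicates.

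Other lists stood near or below the background. Genes of mitochondrial respiration named by the prefixes nuo, cox, ucr, sdh, atp, isp and cyc had 2 of 19 (10.5%, interval 1.30 to 33.1), atp-2 and nuo-1 at 55.63. That list is partial. Counted instead by RefSeq product, a choice made after the values were seen, genes annotated to a respiratory complex had 10 of 52 (19.2%, interval 9.63 to 32.5), among them nduf-2.2, a complex I gene, at 72.21. Proteasome genes had 2 of 24 (8.33%), rpn-9 at 54.80 and rpn-6.1 at 45.86, each found in 1 replicate. Cuticle collagens had 4 of 41 (9.76%), with col-124 at 57.60 and col-39 at 57.21, both with summits in a coding exon of another gene or of their partner, and col-38 at 54.50 opposite the ribosomal protein gene rpl-5.

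Chemoreceptor genes of 8 families (str, srh, sri, srd, srx, srt, srw and srz) had 6 of 211 (2.84%, interval 1.05 to 6.09), led by sri-5 at 79.37, which faces rsr-1, and by srh-185 and srt-16, which face each other and share a peak at 61.42. Over every chemoreceptor family of the genome, a wider set taken after the values were seen, it was 10 of 291 (3.44%, interval 1.66 to 6.23). Histone genes, with the prefix his, had 0 of 41, which allows a share of up to 7.32% by the limit of 3 counts (exact interval up to 8.6%). Neuropeptide genes with the prefixes flp, nlp and ins had 0 of 16 (up to 18.8%, exact 20.6%), and genes with the prefix msp 0 of 15 (up to 20%, exact 21.8%).

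The last 2 counts hold for those names and not for the annotated products. By RefSeq product, again chosen after the values were seen, 5 of 33 genes annotated as major sperm proteins had a member (15.2%, interval 5.11 to 31.9), led by tag-267 at 73.85 and W08E3.4 at 62.64. Of 25 genes with neuropeptide in the product 2 had one (8%, interval 0.984 to 26), F14H8.8 at 87.36, opposite cng-1, and K09H11.9 at 62.03. The limits cover counting error only, and a gene without a member may still hold a stronger peak or one near a short RNA gene.

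**Figure D5:**
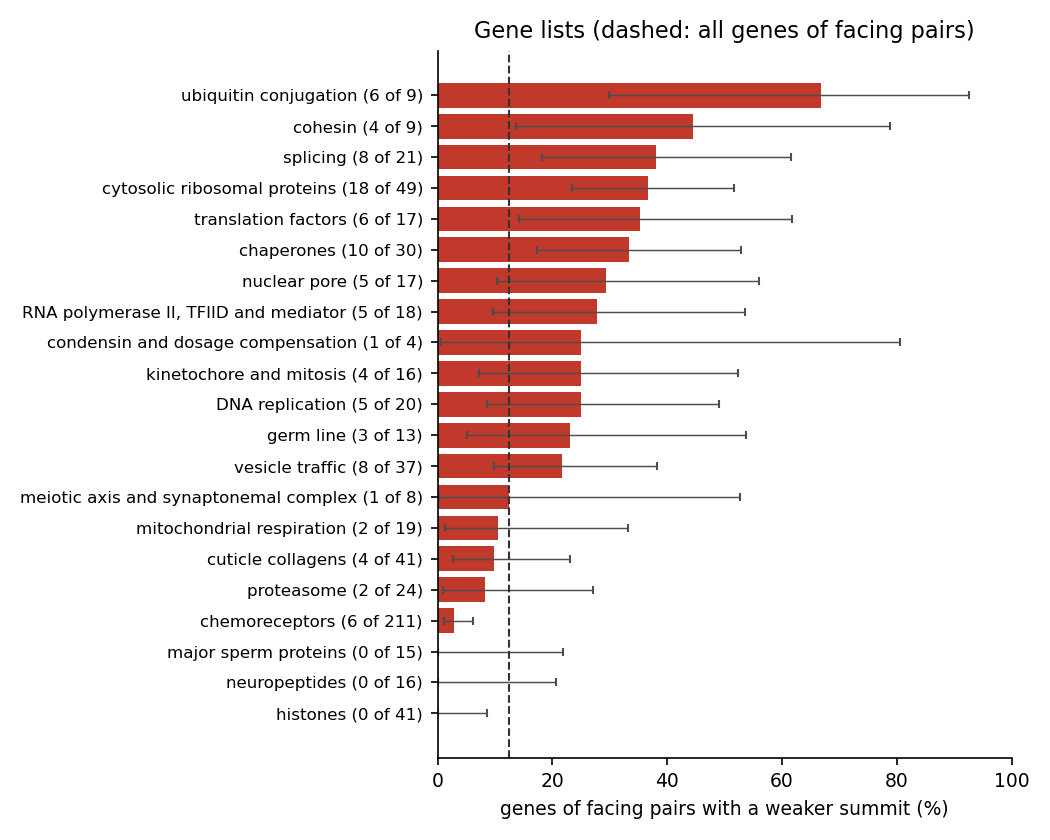
Percent of the genes of facing pairs in each list that had a member summit ahead of their start (x axis), with the counts beside each name and exact 95% binomial intervals as error bars. The dashed line is the 12.4% of all genes of facing pairs; lists go by gene name, and the bars run from 66.7% for ubiquitin conjugation to 0 for the names his (histones), flp, nlp and ins (neuropeptides) and msp (major sperm proteins).

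Facing genes that share a name prefix were members at 7 of 175 such pairs (4%, against 11.3% of all pairs), with 8 peaks. A shared prefix is not always kinship, and kin can have other prefixes, as rpl-39/rps-30 and srt-16/srh-185 do. tag-266/tag-267 had the highest signal, 73.85, and was found in both replicates, but tag is a provisional name and RefSeq gives the genes unlike products. ttr-24/ttr-25, of the transthyretin-like family, had 52.30 and the SR protein genes rsp-2/rsp-1 had 51.45. The remaining peaks were 2 at the chemoreceptor genes sre-53/sre-56, at 50.64 and 44.42, one at the lectin genes clec-245/clec-246, at 45.23, the hsp-16 peak above, and one at scl-13/scl-12, at 43.06, which met no peak in either replicate.

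Base composition was taken over 200 bp centred on the summit. Median GC content was 37.0% at the members (interval 36.0 to 38.0), against 37.5% at one-sided peaks and 39.0% ahead of no start. It was 41.8% at the stronger divergent peaks and 34.0% at the midpoints of all facing pairs. Over 100 bp the median was 40% at the members (interval 38 to 42), 38% at one-sided peaks and 40% ahead of no start. The order of the members among the weaker peaks therefore changed with the window. At 100 bp the stronger divergent peaks had a median of 48.5% and the midpoints 34.0%. The members thus lay between the midpoints of facing pairs and the stronger peaks on both scales.

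Of the 13 motifs searched on both strands in the 200 bp window, a run of TTTTTT was the most frequent. It was held by 70.9% of members (interval 65.8 to 75.6, which holds the midpoint share), against 63.9% at one-sided peaks, 54.7% ahead of no start and 66.8% at midpoints of facing pairs. GAGAGA was held by 20.2%, against 15.1%, 11.8% and 12% in the same order. GGGCGG, the GC box, was held by 9.22% of members (interval 6.39 to 12.8), against 7.10%, 4.94% and 4.48%, and by 19.2% of the stronger divergent peaks. GAGACGCAG was held by 4.32% (interval 2.44 to 7.03), against 3.23%, 1.5% and 1.5%.

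Several other motifs were below the share of the midpoints of facing pairs. The TATA box, TATAAA, was held by 21.3% of members, against 25.2% at the midpoints, but also against 20.2% at one-sided peaks, 897 of 5529 peaks ahead of no start and 12.8% at the stronger divergent peaks. The motif of GATA factors, searched as AGATAA, was held by 7.49% (interval 4.95 to 10.8), against 13.5% at the midpoints, 11.0% at one-sided peaks, 9.40% ahead of no start and 3.85% at the stronger divergent peaks. The heat shock core GAANNTTC was held by 13.3%, against 14.5%, 14.2%, 14.4% and 21.8% in that order. TTTCAG, the splice acceptor signal of worms, was held by 29.4%, against 33.3%, 34.6%, 35.0% and 29.5%, and CCAAT by 31.7%, against 32.7%, 33.0%, 37.0% and 34.6%.

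The remaining motifs were rare or uneven. CACGTG, the E-box, was held by 3.46%, against 3.66% at the midpoints, 4.37% at one-sided peaks, 4.54% ahead of no start and 5.13% at the stronger divergent peaks. In that order TTTCCCGC was held by 2.02%, against 1.20%, 1.99%, 1.19% and 3.85%. TTTGGCGC was held by 2.59% (interval 1.19 to 4.87), against 0.958%, 1.49%, 1.10% and 0%. TGACGTCA was held by 0.288%, which is 1 member, against 1.16%, 1.14%, 1.10% and 0%. TTTCCCGC and TTTGGCGC are forms of the E2F site. None of these differences was tested, matches of different motifs may overlap, and a match is a description of the letters, not a binding site.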

How the data were processed

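Both samples are biological replicates of one group, per the labels. The authors deposited peak lists in ENCODE's narrowPeak layout for each replicate and for both pooled, and a list thresholded by irreproducible discovery rate. Each peak carries the peak caller's signal and a −log10 q value, as deposited. No source used here names the aligner or the caller. Signal was used only within a list. Read counts are not analysed here, so depth is unknown, and a missing peak is no sign of absent binding. The ce10 lists were not used.

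Coordinates are those of ce11 (WBcel235), counted from 1. Starts and genes came from Ensembl release 115. Facing starts were the nearest minus-strand and plus-strand start on either side of a summit. Sequence, GC content and motifs came from the RefSeq genome of the same assembly. The members and the 21 gene lists, which go by gene name, were chosen with earlier results of these data known. Counts by RefSeq product and over all chemoreceptor families were added after the values were seen. Pairs named were the 12 strongest and 3 weakest members, the 8 best by summed replicate place, up to 8 of the same gene class, the 3 narrowest and 3 widest gaps, 4 on each side of the bound, pairs with most members, and up to 3 genes of each list; others were named after their values were seen. Alternatives changed the windows, start choice, overlap rule, signal range and list. The scripts (Python 3.11.15, numpy 2.4.6, pandas 2.3.3, scipy 1.17.1, matplotlib 3.10.9) were tested on simulated peaks. Intervals are exact 95% binomial or order-statistic intervals.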

Additional observations from a re-analysis of the deposited data

How the results depend on the processing

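The upstream window moved most results. With 500 bp the rule kept 189 peaks, with median spacing 448 bp, nearer start 138 bp and midpoint 68 bp away. With 1500 bp these medians were 982.5, 228 and 150 bp. Keeping only signals from 47.8 up left 211 peaks, with median spacing 603 bp and 74.4% in both replicates. That share was 63.4% with an overlap of 1 bp, 44.4% with summits within 100 bp and 23.1% with the 5000 strongest peaks of each replicate. Median GC content was 40% over 100 bp. Leaving out 1 replicate gave 421 to 443 peaks, spacing of 687 to 716 bp, nearer starts at 195 to 198 bp and midpoints at 106 to 120 bp. Of the 331 pairs, 243 (73.4%) had a summit by the list of replicate 1 alone and 235 (71.0%) by that of replicate 2 alone. Keeping only summits outside protein-coding genes, added after the data were seen, left 278 peaks. With the 500 bp window ribosomal protein genes with a member were 11 rather than 18, splicing 5 rather than 8, vesicle traffic 5 rather than 8, chemoreceptors 1 rather than 6, collagens 1 rather than 4, the proteasome 1 rather than 2, and cohesin, kinetochore (each 4), nuclear pore and RNA polymerase II (each 5) all 2. Members as a whole fell from 347 to 189 with that window. The share over all genes of facing pairs was not recounted for it. These counts therefore do not show whether the share of a list changed against the background. Over 300 bp the shares of 7 motifs moved, that of TATAAA to 35.2%. A longer window can hold more matches. The share of TATAAA also rose at midpoints of facing pairs (35.7%), at one-sided peaks (28.7%) and ahead of no start (24.7%). Of the values recomputed, 74 stayed within the spread or 1.5 times the count and 33 moved. No paired analysis was possible because the study has 1 group. Peak lists without depth cannot show whether a weak peak missing from 1 replicate was absent.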
